A study of Mus musculus with 22 samples.

Results

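Gene expression in the inguinal fat of wild-type mice was compared between 5 arrays from mice exposed to cold and 6 arrays from mice kept at thermoneutrality, 11 of the 22 arrays of the series. The members were all genes whose probe sets carry a single gene symbol, 22180 genes from 23521 such probe sets among 41345 in all. All mice were males of 3 to 4 months on a C57BL/6 background, each array held 1 mouse, and every group spent 5 weeks at 28 °C. The warm group then stayed at 28 °C, whereas the cold group passed through 1 week at 21 °C before 10 days at 5 °C, so the cold step and the preceding step at 21 °C cannot be told apart. There were 10 mice housed per group, and the labels do not say how the arrayed ones were picked. The other 11 arrays came from PPARα-null mice, which lack a nuclear receptor for fatty acids, with the same 2 treatments (6 at 28 °C and 5 at 5 °C). They enter the fit below as further groups that share the estimate of spread. The Ppara probe set did not mark these arrays: its mean was 4.88 at 28 °C and 6.30 at 5 °C in null mice, a rise of 1.42, and 4.72 and 6.59 in wild-type mice, a rise of 1.87. Its position relative to the deleted part of the gene is not known here, so it checks no label. Values are log2 expression values, so a change of 1 is a doubling of signal, and changes are 5 °C minus 28 °C throughout.

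Inguinal fat is a subcutaneous white depot that stores triglyceride. In the cold, noradrenaline from sympathetic nerves acts on its adipocytes through cyclic AMP, which releases fatty acids and recruits beige adipocytes rich in mitochondria and in the uncoupling protein UCP1. Such cells burn fatty acids and glucose for heat and must also build mitochondria, refill lipid stores and remodel their surroundings. Genes already known for brown and beige fat, fatty acid oxidation, and the respiratory chain with the tricarboxylic acid cycle were set aside as 3 lists with 172 measured genes, of which 136 rose and 3 fell. Ucp1 was among them, with 12.43, 12.30, 12.36, 12.43 and 12.49 log2 units at 5 °C and 4.50 to 5.80 (median 5.41) at 28 °C, so the groups lay far apart. The account below concerns the other genes.

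Several genes are shown here with the 150 bases before their annotated start because they rose or fell in the cold and carry a short motif there. The sequences are from RefSeq's promoter table on GRCm38.p6, read 5′ to 3′ on the gene's own strand, and 16990 of the 22180 genes had an entry. The first motif, the palindrome in capitals below, is the consensus of nuclear respiratory factor 1, a transcription factor of mitochondrial genes. It reads the same on both strands and is shown in Ndufa11 (a complex I subunit, chr17:56717612-56717761, plus strand), Opa1 (which fuses inner membranes, chr16:29579184-29579333, plus strand), Mrpl9 (a mitochondrial ribosomal protein, chr3:94443186-94443335, plus strand) and Nnat (neuronatin, a small membrane protein of the endoplasmic reticulum, chr2:157559928-157560077, plus strand). Its first base lay 60, 59, 28 and 26 bases before the start in that order.
Ndufa11: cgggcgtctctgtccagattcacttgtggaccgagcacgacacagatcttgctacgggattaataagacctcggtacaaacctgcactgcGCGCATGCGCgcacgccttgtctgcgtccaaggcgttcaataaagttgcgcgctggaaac
Opa1: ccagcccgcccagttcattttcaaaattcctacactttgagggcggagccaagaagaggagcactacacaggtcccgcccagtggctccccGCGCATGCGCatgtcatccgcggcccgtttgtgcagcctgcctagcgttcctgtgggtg
Mrpl9: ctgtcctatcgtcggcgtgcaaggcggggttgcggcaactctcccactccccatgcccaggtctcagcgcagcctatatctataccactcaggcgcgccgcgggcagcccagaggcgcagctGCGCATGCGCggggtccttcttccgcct
Nnat: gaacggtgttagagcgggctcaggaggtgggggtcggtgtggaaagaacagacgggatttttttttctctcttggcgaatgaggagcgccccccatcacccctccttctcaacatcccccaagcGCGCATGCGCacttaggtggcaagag

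Ndufa11 rose by 0.79 (SE 0.12, limma adjusted p = 5.36e-05), Opa1 by 0.62 (SE 0.07, limma adjusted p = 1.44e-06) and Mrpl9 by 0.48 (SE 0.11, limma adjusted p = 0.00271), while Nnat fell by 1.48 (SE 0.26, limma adjusted p = 0.000262), so a match was found before genes of both directions. In windows of 300 bases, 250 before the start and 50 after it, the motif stood in 51 of 1503 genes called higher (3.39%), 25 of 1409 called lower (1.77%), 178 of 14078 not called (1.26%) and 1.49% of all genes with a promoter. Within 7 lists of mitochondrial genes it stood in the windows of 9 of 265, or 3.4%. Among called-higher genes only, it stood in the windows of 8 of 189 in those lists (4.23%) and 43 of 1314 outside them (3.27%). The set-aside respiratory chain list held 5 of the 9, mitochondrial ribosomal proteins 3 and shape genes 1. The lists of import, mitochondrial DNA upkeep, coenzyme Q and Slc25 carriers held 0. The higher genes also had the more GC-rich windows, with a median of 60.3% against 59.3% for lower and 55.7% for uncalled genes, and the part of base composition in the motif's shares was not tested. The cyclic AMP response element TGACGTCA, searched on both strands, stood in 3.59% of higher, 2.56% of lower and 2.65% of all promoters. The E-box CACGTG stood in 11.8%, 10.2% and 9.19%, and both of these motifs are palindromes that share the letters ACGT.

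A second motif, TGATGNAAT, is bound by pairs of C/EBP and ATF4 proteins. It was searched on both strands and stood in 0.93% of all promoters, 0.865% of those called higher and 0.639% of those called lower. It is shown in 2 genes with large changes in opposite directions, Angptl8 (chr9:21835360-21835509, plus strand, first base 130 before the start) and Sult1e1 (chr5:87591612-87591761, minus strand, 70 before the start, where the capitals give the motif's other strand). These matches are letters in a window and describe no binding. Other motifs were searched in the same promoters and are not shown. The estrogen-related receptor element stood in 0.399% of higher, 0.355% of lower and 0.365% of all promoters. The direct repeat of PPAR receptors stood in 0.0665% (1 gene), 0% and 0.0647%. The glucocorticoid element stood in 0.133% (2 genes), 0% and 0.0118%. The motif of EBF factors stood in 0.599%, 1.35% and 1.19%, so it was rarest among the higher genes.
Angptl8: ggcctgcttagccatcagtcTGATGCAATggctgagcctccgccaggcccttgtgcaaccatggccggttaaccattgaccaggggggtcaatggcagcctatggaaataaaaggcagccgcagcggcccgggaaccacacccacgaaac
Sult1e1: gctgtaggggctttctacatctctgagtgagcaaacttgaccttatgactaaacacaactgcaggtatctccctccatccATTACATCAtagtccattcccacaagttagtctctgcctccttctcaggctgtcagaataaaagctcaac

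Of the 22180 genes, 1852 (8.35%) rose and 1841 (8.3%) fell in the cold at an adjusted p under 0.05 in limma, and changes above 2-fold were found for 179 called higher (0.807%) and 34 called lower (0.153%). Outside the set-aside lists 1716 rose and 1838 fell, 133 and 34 of them by more than 2-fold. The median change was 0.48 among the higher and −0.43 among the lower genes, both over all genes. By more than 4-fold 20 genes rose, 9 of them outside the set-aside lists, and 0 fell. When each array's median over all probe sets was subtracted first, 2368 rose and 1354 fell (63.62% of calls higher against 50.15%), so the balance of directions depended on the scaling. The array medians were 4.63 to 4.68 at 5 °C and 4.68 to 4.77 at 28 °C. In 2616 genes (11.8%) the values of the 5 cold and 6 warm mice did not overlap. Calls were concentrated among brighter genes: of the 5545 brightest genes 18.6% rose and 19% fell, against 2.6% and 0.361% of the 5545 dimmest.

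**Figure D1:**
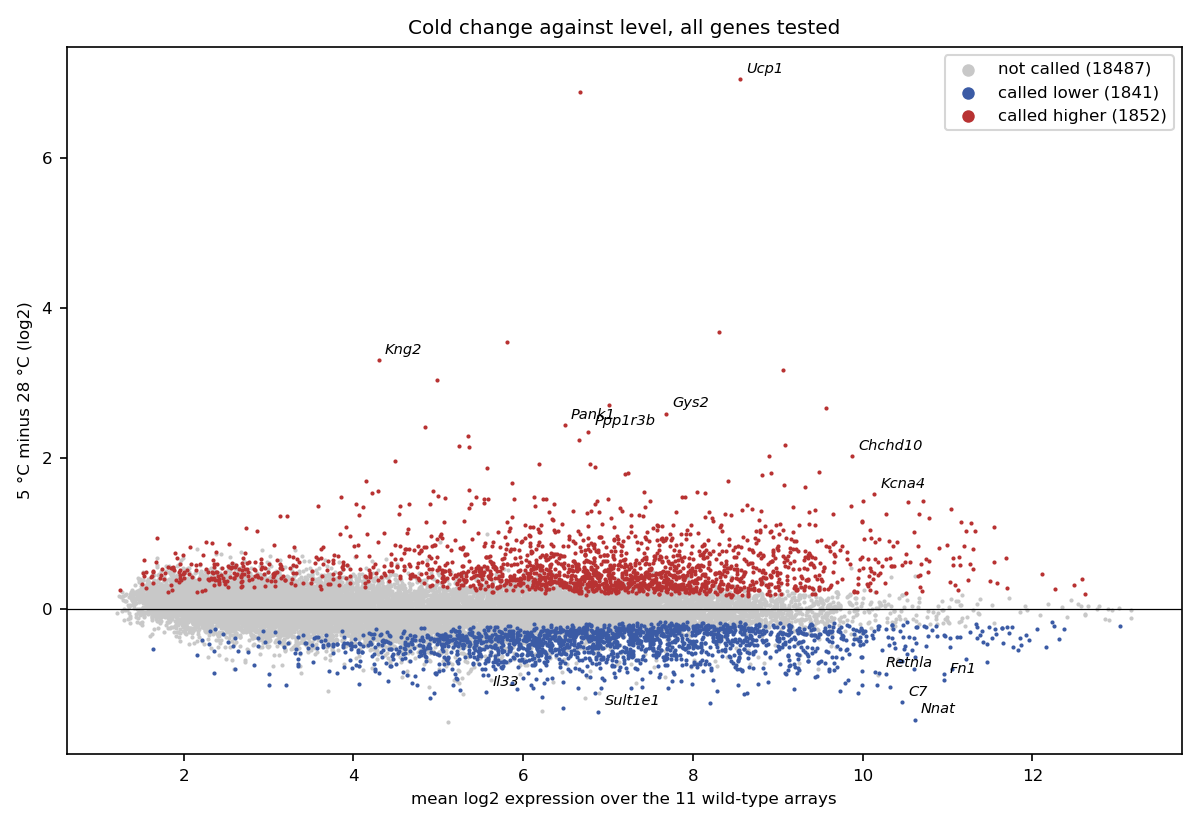
Change in the cold (5 °C minus 28 °C, log2) against the mean log2 expression over the 11 wild-type arrays, 1 point per gene, coloured by call. The 1852 genes called higher reach 7.05 (Ucp1), whereas the 1841 called lower end at −1.48 (Nnat).

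Below, cold and warm mouse with a number stand for the replicates at 5 °C and 28 °C. Markers of cells other than adipocytes varied among the arrays. The mean of 18 skeletal muscle markers ran from 6.05 to 9.89 log2 units at 5 °C and from 6.97 to 9.13 at 28 °C, while the mean of 14 lymphocyte markers (B and T cells) ran from 4.15 to 5.81 and from 4.35 to 7.41, with 0 genes called in either list. Cold mouse 2 was the highest for muscle and warm mouse 3 for B and T cells, and correlations between wild-type arrays stayed within 0.97 and 0.99. Adipocyte markers averaged 10.49 to 10.82 at 5 °C and 10.71 to 10.92 at 28 °C, and 1 of 7 was called lower (2 without cold mouse 4 or cold mouse 5). That gene was Adipoq, the hormone adiponectin, with 9.76, 9.90, 9.96, 9.80 and 9.79 at 5 °C and 10.12 to 10.33 (median 10.20) at 28 °C, a fall of 0.36 (SE 0.06, limma adjusted p = 0.000242).

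**Figure D2:**
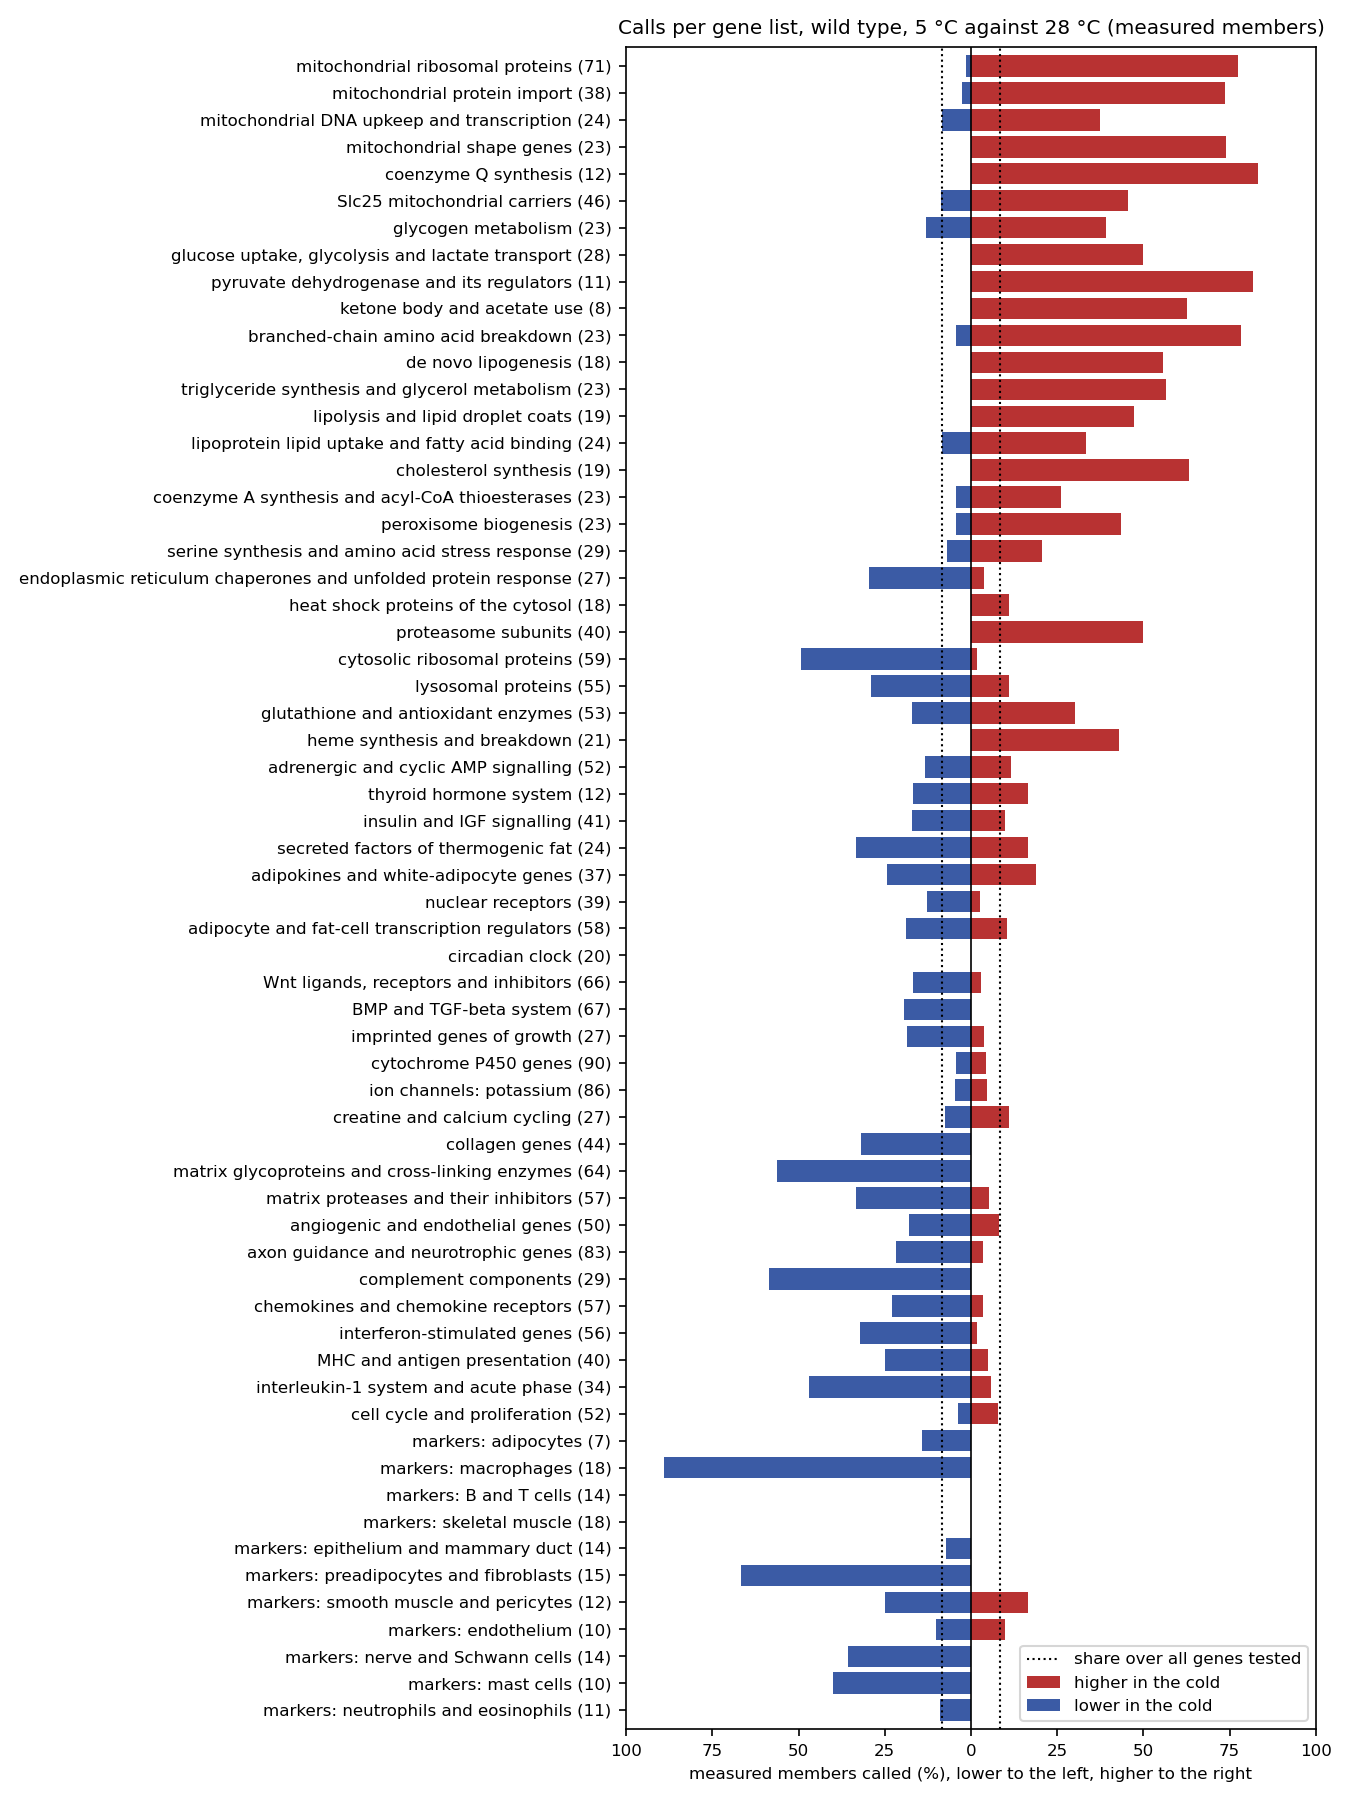
Percent of the measured members of each gene list (number in brackets) called higher (right) or lower (left) in the cold, with dotted lines at the shares over all genes tested (8.35% and 8.3%). The bars for mitochondrial and fuel lists extend to the right, and those for matrix, complement and macrophage lists to the left.

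Genes that build mitochondria rose in large numbers. Of 71 mitochondrial ribosomal proteins, which translate the few proteins encoded by mitochondrial DNA, 55 rose and 1 fell (median change 0.43, against 0.01 for all genes). Mrpl16 read 7.35, 7.17, 7.08, 7.02 and 7.42 at 5 °C and 6.09 to 6.28 (median 6.17) at 28 °C, with no overlap, and rose by 1.03 (SE 0.09, limma adjusted p = 5.53e-08). Mrps23, Mrpl34 and Mrpl50 rose by 0.72, 0.85 and 0.85. The mean of the list lay between 6.76 and 6.90 in the 5 cold mice and between 6.36 and 6.52 in the 6 warm mice. The exception was Mrps14, with a fall of 0.47 that lost its call in 12 of 20 alternative settings.

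Protein import followed the same direction, with 28 of 38 genes higher and 1 lower (median 0.53). Hspa9, the chaperone that pulls precursors into the matrix, rose by 0.84, the outer-membrane assembly factor Samm50 by 0.82, the motor anchor Timm44 by 0.77 and the processing peptidase subunit Pmpcb by 0.72. Genes that shape mitochondria gave 17 of 23 higher and 0 lower (median 0.54). Letm1, an inner-membrane cation exchanger, had 8.72, 8.79, 8.62, 8.57 and 8.90 at 5 °C and 7.09 to 7.47 (median 7.21) at 28 °C, and rose by 1.49 (SE 0.09, limma adjusted p = 1.92e-10). The crista organisers Immt and Chchd3 rose by 0.82 and 0.66. Chchd10, a small protein of the intermembrane space, is in none of the lists and had 11.28, 10.88, 10.89, 10.73 and 11.12 against 8.55 to 9.38 (median 8.90), a 4.09-fold rise in signal.

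Upkeep and transcription of mitochondrial DNA moved less evenly. Among 24 such genes 9 rose and 2 fell (median 0.16). The RNA-binding protein Lrpprc rose by 0.95, the transcription factor Tfb2m by 0.77, the protease Lonp1 by 0.64 and the chaperone Clpx by 0.61. Thymidine kinase Tk2 fell by 0.34 and the polymerase accessory subunit Polg2 by 0.37, the latter with its call lost in 9 of 21 settings. Coenzyme Q carries electrons between respiratory complexes, and 10 of 12 genes for making or handling it rose with 0 lower, at a median of 0.85. Coq9, Coq7, Coq10a and Coq10b rose by 0.93, 1.03, 0.85 and 0.99. The list's mean was 7.22 to 7.48 in cold mice and 6.52 to 6.71 in warm mice.

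Carriers of the Slc25 family move metabolites across the inner mitochondrial membrane, and 21 of 46 rose and 4 fell (median 0.21). The carnitine carrier Slc25a20, which is also a fatty acid oxidation gene, rose by 2.03, the coenzyme A carrier Slc25a42 by 1.31, the glutathione carrier Slc25a39 by 1.04 and the peroxisomal member Slc25a17 by 0.92. In the other direction Slc25a24, Slc25a45 and Slc25a14 fell by 0.32, 0.40 and 0.46. Ucp3, a relative of Ucp1, rose by 1.56 (SE 0.14, limma adjusted p = 5.14e-08), and Ppif, the cyclophilin of the mitochondrial permeability pore, by 1.56 (SE 0.10, limma adjusted p = 1.17e-09).

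**Figure D3:**
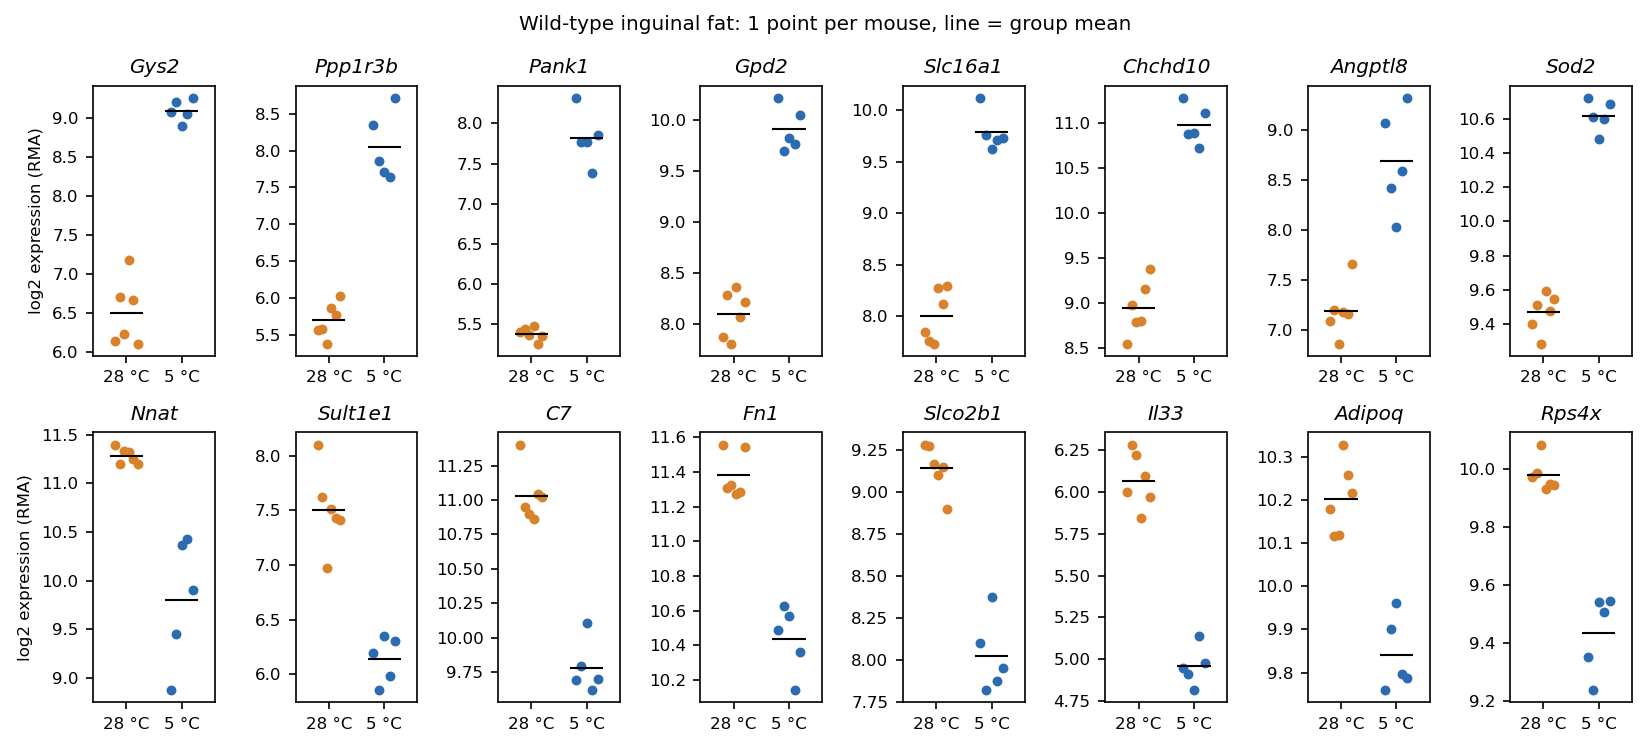
Log2 expression of 16 genes in each wild-type mouse at 28 °C (6 points) and 5 °C (5 points), with a line at each group mean, each panel on its own axis. In the upper row all cold mice lie above all warm mice, and in the lower row all lie below.

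Glycogen genes held some of the largest changes of the comparison. Gys2, the glycogen synthase isoform of liver, had 9.08, 9.21, 8.90, 9.05 and 9.26 at 5 °C and 6.11 to 7.18 (median 6.45) at 28 °C, a 6.04-fold rise in signal (change 2.60, SE 0.22, limma adjusted p = 2.23e-08). Ppp1r3b targets protein phosphatase 1 to glycogen and activates the synthase. Its 5 cold mice had 8.34, 7.85, 7.71, 7.64 and 8.71 and its warm mice 5.38 to 6.02 (median 5.67), a rise of 2.36 (SE 0.22, limma adjusted p = 1.19e-07), and its second probe set changed by 1.598. Both groups of values lay apart for each gene. The branching enzyme Gbe1 rose by 1.04 and the synthase of muscle, Gys1, by 0.61. In the whole list of 23 genes 9 rose and 3 fell (median 0.14). The 3 that fell, Gaa, Phka2 and Pygb (by 0.23, 0.25 and 0.24), act in glycogen breakdown. They lost their calls in 5, 3 and 12 of 21 alternative settings in that order, and with array medians subtracted 0 of the list fell.

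Glucose entry and glycolysis gave 14 of 28 genes higher and 0 lower (median 0.31). Slc16a1, a lactate and pyruvate carrier of the cell membrane, had 10.12, 9.76, 9.62, 9.71 and 9.73 at 5 °C against 7.73 to 8.29 (median 7.98), a rise of 1.78 (SE 0.13, limma adjusted p = 3.25e-09). Pfkl, the liver form of phosphofructokinase, had 9.70, 9.25, 9.14, 9.07 and 9.55 against 7.43 to 7.79 (median 7.70), a rise of 1.70. Pgam1 and Pgk1, later enzymes of the pathway, rose by 1.29 and 1.28. The fructose transporter Slc2a5 rose by 1.79 (SE 0.39, limma adjusted p = 0.00219), with warm mice from 5.63 to 6.82.

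The means of the glycogen and glycolysis lists were highest in cold mouse 2 (7.84 and 7.96), the mouse with the highest muscle markers, and muscle expresses many of these genes. Without that mouse 7 glycogen and 13 glycolysis genes rose, and with the muscle and lymphocyte marker means as covariates 11 and 15 rose. Gys2, Ppp1r3b, Slc16a1 and Pfkl were not highest in that mouse, though Gys2 and Slc16a1 were next to highest there. The part of muscle in the changes of these lists was not tested.

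The pyruvate dehydrogenase complex turns pyruvate into acetyl-CoA inside mitochondria. Of 11 genes for it and its regulators 9 rose and 0 fell (median 0.88). Dlat, its acetyltransferase core, read 10.22, 9.98, 9.70, 9.88 and 10.09 at 5 °C and 8.09 to 8.46 (median 8.39) at 28 °C, a 3.12-fold rise. Pdhb and Pdhx rose by 1.42 and 1.28, and Pdpr, a subunit of the phosphatase that activates the complex, by 0.54. Genes for the use of ketone bodies and acetate gave 5 of 8 higher and 0 lower, with the mitochondrial acetyl-CoA synthetase Acss1 up by 1.12 and the thiolase Acat1 by 0.62.

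Branched-chain amino acids are another fuel of thermogenic fat, and 18 of 23 genes of their breakdown rose (median 0.52). Pcca of propionyl-CoA carboxylase rose by 0.75, Bckdha of the branched-chain dehydrogenase by 0.79 and Hibch of the valine branch by 0.59. Bckdk, the kinase that inhibits that dehydrogenase, rose by 0.61 beside it. Abat, a transaminase of GABA and of an intermediate of valine breakdown, was the gene that fell (0.56), and it lost its call with the mean of its 2 probe sets. Aspg, an asparaginase in none of the lists, had 7.27, 6.20, 6.63, 6.09 and 6.80 against 4.14 to 4.51 (median 4.25), a 4.92-fold rise.

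Genes for making fat rose together with the genes for burning it. De novo lipogenesis gave 10 of 18 higher and 0 lower (median 0.46). Elovl6, which elongates palmitate, had 12.15, 11.66, 11.45, 11.59 and 11.93 at 5 °C and 9.97 to 10.66 (median 10.60) at 28 °C, a rise of 1.33 (SE 0.27, limma adjusted p = 0.00106). Me1, which makes NADPH, rose by 1.03, the acetyl-CoA carboxylase Acacb by 1.18 and Thrsp, a lipogenic regulator, by 0.67. Triglyceride and glycerol genes gave 13 of 23 higher and 0 lower (median 0.41). Gpd2, the mitochondrial enzyme of the glycerol phosphate shuttle, had 10.21, 9.69, 9.82, 9.77 and 10.04 against 7.81 to 8.36 (median 8.14), a rise of 1.80 (SE 0.14, limma adjusted p = 6.66e-09). Its cytosolic partner Gpd1 rose by 1.09, the acyltransferase Agpat2 by 1.16, the phosphatidate phosphatase Lpin1 by 0.66 and Pgp, which removes phosphate from glycerol phosphate, by 0.91.

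Lipid droplet and lipolysis genes gave 9 of 19 higher and 0 lower (median 0.18), with the droplet coat Plin2 up by 0.83, Fitm2 by 0.67, the monoacylglycerol lipase Abhd6 by 0.65 and the lysosomal lipase Lipa by 0.40. Among 24 genes of lipoprotein uptake and fatty acid binding 8 rose and 2 fell (median 0.07). Angptl8, a hormone that steers lipoprotein lipase between tissues, had 9.07, 8.42, 8.03, 8.58 and 9.31 at 5 °C against 6.87 to 7.66 (median 7.17), a rise of 1.49 (SE 0.31, limma adjusted p = 0.00132). Fabp5, a fatty acid binding protein, rose by 1.33 (SE 0.13, limma adjusted p = 2.64e-07), the endothelial lipase Lipg by 1.37 and the fatty acid receptor Ffar4 by 0.95. The receptor Lrp1 and the lipoprotein Apoe fell by 0.54 and 0.39.

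Cholesterol synthesis gave 12 of 19 higher and 0 lower (median 0.58). Hmgcs1, its early synthase, had 10.21, 9.90, 10.08, 10.37 and 10.22 against 8.16 to 9.48 (median 8.93), a rise of 1.31 (SE 0.17, limma adjusted p = 9.1e-06). Pmvk, Tm7sf2 and Insig1 rose by 1.11, 0.76 and 0.88. The mean of the list was lowest in warm mouse 3 (6.65) and, among cold mice, in mouse 3 (7.16).

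Coenzyme A synthesis and acyl-CoA thioesterases gave 6 of 23 genes higher and 1 lower. The thioesterase Acot11, which is also one of the set-aside brown-fat genes, rose by 3.54. Pank1, the rate-limiting kinase of its synthesis, had 8.31, 7.77, 7.76, 7.38 and 7.86 against 5.25 to 5.47 (median 5.38), a 5.42-fold rise (change 2.44, SE 0.15, limma adjusted p = 3.54e-10). Coasy, which completes the molecule, rose 2.46-fold. Vnn1, which breaks down its precursor pantetheine, fell by 1.17 (SE 0.29, limma adjusted p = 0.00584). Peroxisome biogenesis gave 10 of 23 higher and 1 lower (median 0.23), with Pex16 and Pex14 up by 0.91 and 0.70 and the ether lipid enzyme Gnpat up by 0.48, while Far1 of the same ether lipid pathway fell by 0.34.

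Genes that make, fold and degrade proteins moved in both directions. Of 40 proteasome subunits 20 rose and 0 fell (median 0.20). Psmb5, the chymotrypsin-like catalytic subunit, had 8.25, 8.47, 8.11, 8.16 and 8.35 against 7.05 to 7.59 (median 7.29), a rise of 1.00 (SE 0.10, limma adjusted p = 1.52e-07). Psma1, Psmd12 and Psmd3 rose by 0.56, 0.48 and 0.41. Cytosolic ribosomal proteins moved the other way, with 1 of 59 higher and 29 lower (median −0.29). Rps4x had 9.35, 9.24, 9.54, 9.51 and 9.54 at 5 °C and 9.93 to 10.08 (median 9.96) at 28 °C, a fall of 0.54 (SE 0.08, limma adjusted p = 4.38e-05). Rps12, Rpl21 and Rpl4 fell by 0.49, 0.42 and 0.38. The exception Rps27l (up by 0.37) is a p53-induced relative of Rps27. Ribosomal protein genes have many processed pseudogenes that probes can share, so single members are uncertain.

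Chaperones and unfolded protein genes of the endoplasmic reticulum gave 1 of 27 higher and 8 lower (median −0.10). Sdf2l1 had 5.37, 5.71, 5.53, 5.42 and 5.34 against 5.71 to 6.33 (median 6.25) and fell by 0.68, with the groups just touching. P4hb, Hsp90b1 and Pdia6 fell by 0.37, 0.30 and 0.32. Heat shock proteins of the cytosol gave 2 of 18 higher and 0 lower, and the count depended on the setting: 5 rose with array medians subtracted, 4 after quantile normalization and 6 with the muscle and lymphocyte covariates. Further, 1 rose without warm mouse 1, warm mouse 5 or cold mouse 5, and 4 rose without cold mouse 3. Lysosomal proteins gave 6 of 55 higher and 16 lower. The cathepsins Ctsh and Ctsc and the macrophage sialomucin Cd68 fell by 0.87, 0.51 and 0.72, whereas the proton pump subunits Atp6v0a2, Atp6v1a and Atp6v1d rose by 0.56, 0.39 and 0.44.

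Antioxidant genes moved in both directions. In all 16 of 53 rose and 9 fell (median 0.10). Sod2, the superoxide dismutase of the mitochondrial matrix, had 10.72, 10.61, 10.48, 10.60 and 10.69 against 9.29 to 9.59 (median 9.49), a rise of 1.15 (SE 0.10, limma adjusted p = 2.23e-08). Prdx3, a peroxiredoxin of the same compartment, rose by 1.00, and the glutathione enzymes Mgst2 and Gsto1 by 1.09 and 0.83. Gpx3, the secreted glutathione peroxidase, had 8.22, 8.02, 8.64, 8.14 and 8.17 against 8.88 to 9.09 (median 9.03), a fall of 0.77. Nnt, a transhydrogenase that supplies NADPH in mitochondria, fell by 0.61 (SE 0.08, limma adjusted p = 4.63e-06). Heme genes gave 9 of 21 higher and 0 lower (median 0.18), with the transferrin receptor Tfrc up by 0.86, the mitochondrial transporter Abcb10 by 0.67 and the synthesis enzymes Urod and Alad by 0.51 and 0.48. Serine synthesis and the amino acid stress response gave 6 of 29 higher and 2 lower (median 0.10): Asns, Psph and Atf5 rose by 0.68, 0.72 and 0.45 and Phgdh fell by 0.58.

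Genes of adrenergic and cyclic AMP signalling were called near the background, with 6 of 52 higher and 7 lower (median −0.01). Adcy10, the soluble adenylyl cyclase that responds to bicarbonate, had 5.49, 4.66, 4.64, 4.98 and 5.58 against 2.92 to 3.71 (median 3.40), a 3.25-fold rise (SE 0.20, limma adjusted p = 2.68e-06). Of protein kinase A, the catalytic subunit Prkaca rose by 0.50 and the regulatory subunit Prkar2b by 0.58, and the phosphodiesterase Pde4a rose by 0.67. In the thyroid hormone list of 12 genes 2 rose and 2 fell, and one of the former, the corepressor Hr (0.59), lost its call in 9 of 21 settings. Slco2b1, an organic anion transporter, had 8.10, 7.82, 8.38, 7.87 and 7.95 against 8.90 to 9.28 (median 9.16) and fell by 1.12 (SE 0.12, limma adjusted p = 5.77e-07), and the receptor Thra fell by 0.47.

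Insulin and IGF signalling gave 4 of 41 higher (9.76%) and 7 lower (17.1%), with a median of −0.11. The list's mean lay among the levels of the 5545 brightest genes, of which 18.6% rose and 19% fell. The binding proteins Igfbp6, Igfbp5 and Igfbp7, which hold IGFs outside the cell, fell by 0.72, 0.48 and 0.39. Mtor, the growth kinase, had 8.73, 8.32, 8.37, 8.45 and 8.66 against 7.63 to 8.00 (median 7.80), a rise of 0.71, and the PI3 kinase subunits Pik3cb and Pik3r3 rose by 0.58 and 0.37. Pim1, a serine/threonine kinase induced by cytokines and listed nowhere, had 8.50, 7.86, 7.50, 7.46 and 8.07 against 5.82 to 6.27 (median 5.88), a rise of 1.89 (SE 0.16, limma adjusted p = 4.23e-08), with 0.36 for its second probe set.

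Among factors that thermogenic fat secretes, 4 of 24 rose and 8 fell. Kng2, a kininogen from which kinins are cut, held the largest increase outside the set-aside lists. It read 6.55, 5.97, 5.45, 6.21 and 6.33 at 5 °C and 2.17 to 3.44 (median 2.82) at 28 °C, a 9.9-fold rise (change 3.31, SE 0.29, limma adjusted p = 3.88e-08). The 28 °C median of Kng2 lay within the levels of the 5545 dimmest genes (1.27 to 2.98), so its fold is uncertain. Pm20d1, which makes N-acyl amino acids, rose by 0.73, and the follistatin-like protein Fstl1 and the chemokine Cxcl14 fell by 0.73 and 0.49. The 8 that fell became 5 without cold mouse 4 and 5 without cold mouse 5.

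Adipokine and white-adipocyte genes gave 7 of 37 higher (18.9%) and 9 lower (24.3%), with a median of −0.16. This list's mean, too, lay among the levels of the 5545 brightest genes, of which 18.6% rose and 19% fell. Sult1e1, an estrogen sulfotransferase, had 6.19, 5.85, 6.35, 5.98 and 6.31 against 6.97 to 8.10 (median 7.47), a fall of 1.37 (SE 0.20, limma adjusted p = 3.79e-05). Retnla, a secreted relative of resistin, had 9.92, 9.76, 9.98, 9.39 and 9.57 against 10.47 to 10.69 (median 10.59), a fall of 0.86. C1qtnf7 fell by 1.01 and its family member C1qtnf12 rose by 0.73. Nnat is an imprinted gene with 8.88, 9.45, 10.36, 10.43 and 9.91 against 11.20 to 11.40 (median 11.29), so its cold values were spread widely below a tight warm group; its second probe set fell by 1.34. Imprinted growth genes as a list gave 1 of 27 higher and 5 lower, with Plagl1 and Ndn down by 0.59 and 0.42.

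Of 58 fat-cell regulators 6 rose and 11 fell (median −0.08). Cebpb, which cyclic AMP induces in adipocytes, had 7.30, 7.17, 7.40, 7.14 and 7.37 against 6.06 to 6.62 (median 6.34), a rise of 0.94 (SE 0.10, limma adjusted p = 7.66e-07). Ebf1, another fat-cell regulator, fell by 0.30. The mitochondrial deacetylase Sirt3 rose by 0.51. Among 39 nuclear receptors 1 rose, the retinoid receptor Rxrg (0.68), and 5 fell. The fallen count was 2 with either rescaling of the arrays and 2 to 3 without any single one of warm mice 1, 4, 5 and 6 and cold mice 1 and 5. The circadian clock gave 0 of 20 called in limma, although 1 rose without warm mouse 2, and 1 rose and 3 fell with the muscle and lymphocyte covariates. Cell cycle genes gave 4 of 52 higher and 2 lower, with 1 higher without cold mouse 1 and 2 without warm mouse 2. In the other direction 7 rose with array medians subtracted, 6 after quantile normalization and 9 with the covariates.

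Lists of developmental signals held more decreases than increases. Wnt genes gave 2 of 66 higher and 11 lower. Lgr6, an R-spondin receptor, had 5.25, 5.12, 4.82, 5.02 and 5.52 against 3.29 to 3.99 (median 3.52), a rise of 1.57, while the secreted inhibitors Sfrp2 and Sfrp4 and the effector Tcf7l2 fell by 0.96, 0.66 and 0.48. BMP and TGF-beta genes gave 0 of 67 higher and 13 lower (median −0.11). Bmp7, a ligand known to promote brown adipocytes, had 5.53, 6.12, 6.07, 5.75 and 5.85 against 6.31 to 6.84 (median 6.56), a fall of 0.71 (SE 0.12, limma adjusted p = 0.000155). The latency protein Ltbp1, the co-receptor Tgfbr3 and the procollagen protease Bmp1 fell by 0.61, 0.51 and 0.50.

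Cytochrome P450 genes gave 4 of 90 higher and 4 lower, and potassium channels 4 of 86 and 4. Both lists were dim on average, and among the 5545 genes with a mean level between 2.98 and 4.67 log2 units 2.56% rose and 2.42% fell. Cyp1a1, a target of the aryl hydrocarbon receptor, had 4.98, 4.98, 5.70, 4.80 and 4.82 against 3.20 to 4.01 (median 3.49), a rise of 1.54, and Cyp2b10 and Cyp2u1 rose by 1.37 and 1.13. Kcna4, a voltage-gated potassium channel, had 11.06, 10.73, 10.96, 10.82 and 11.23 against 9.18 to 9.67 (median 9.44), a rise of 1.52 (SE 0.13, limma adjusted p = 4.8e-08), but its second probe set changed by 0.14. Creatine and calcium cycling gave 3 of 27 higher and 2 lower, with the calcium pump Atp2a2 up by 0.44 and the creatine synthesis enzyme Gatm down by 0.58; this list's mean was also highest in cold mouse 2 (6.82, others 5.81 to 6.30).

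Genes of the extracellular matrix fell, and few rose. Of 64 matrix glycoproteins and cross-linking enzymes 0 rose and 36 fell (median −0.44). Fn1, fibronectin, had 10.49, 10.63, 10.57, 10.14 and 10.36 against 11.27 to 11.56 (median 11.32), a fall of 0.94 (SE 0.09, limma adjusted p = 1.15e-07). Fbln1, Lama3, Efemp1 and Tgfbi fell by 1.11, 0.94, 0.90 and 0.82. The list's mean was 7.06 to 7.21 in cold mice and 7.48 to 7.67 in warm mice. Collagen genes gave 0 of 44 higher and 14 lower, with Col1a1 down by 0.84, Col1a2 by 0.83, Col6a6 by 0.81 and Col3a1 by 0.70.

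Matrix proteases and their inhibitors gave 3 of 57 higher and 19 lower (median −0.15). Adamts5 and Adamts16, which cut proteoglycans and other matrix proteins, fell by 1.09 and 1.12, and the inhibitor Timp2 fell by 0.60. Adam12 rose by 1.46 (SE 0.14, limma adjusted p = 9.04e-08) and Mmp19 by 0.55. Axon guidance genes gave 3 of 83 higher and 18 lower, among them Slit3, Sema5a and Sema3b with falls of 0.73, 0.91 and 0.66. Markers of nerve and Schwann cells gave 0 of 14 higher and 5 lower, led by the sodium channel Scn7a (0.66), and 3 lower without warm mouse 1, warm mouse 2 or cold mouse 2.

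Markers of preadipocytes and fibroblasts, the main makers of this matrix, gave 0 of 15 higher and 10 lower (median −0.57), and their mean ran from 7.73 to 7.82 in cold mice and from 8.16 to 8.29 in warm mice. Pi16, a marker of early progenitors, had 7.96, 8.64, 8.24, 8.09 and 8.20 against 9.05 to 9.51 (median 9.14), a fall of 1.00 (SE 0.11, limma adjusted p = 1.47e-06). Pdgfra, Cd34 and Dcn fell by 0.62, 0.58 and 0.48. In whole tissue fewer cells of a type and less RNA per cell cannot be told apart, and the part of these cells in the matrix decreases was not tested.

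Blood vessel genes gave 4 of 50 higher (8%) and 9 lower (18%), and 5 lower without cold mouse 1. Their mean lay among the levels of the 5545 brightest genes, of which 18.6% rose and 19% fell. Thbd, thrombomodulin, had 7.63, 7.79, 8.14, 8.10 and 8.28 against 8.95 to 9.29 (median 9.12), a fall of 1.13 (SE 0.12, limma adjusted p = 5.32e-07). The receptor Tek fell by 0.43 and the lymphatic and macrophage receptor Lyve1 by 0.45, whereas the endothelial nitric oxide synthase Nos3 rose by 0.58. Endothelial markers gave 1 of 10 in each direction, Kdr higher and Tek lower, and Kdr (0.24) lost its call in 11 of 21 settings. All 10 of these markers are also in another list. Smooth muscle and pericyte markers gave 2 of 12 higher and 3 lower, and 1 lower without warm mouse 1, cold mouse 2 or cold mouse 5.

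Several immune lists held mostly decreases. Macrophage markers gave 0 of 18 higher and 16 lower (median −0.64), with a mean of 7.30 to 7.68 in cold mice and 7.96 to 8.16 in warm mice. Folr2, a marker of resident macrophages, had 9.50, 9.68, 9.44, 8.86 and 9.08 against 10.15 to 10.41 (median 10.23), a fall of 0.94 (SE 0.12, limma adjusted p = 5.38e-06), and Mrc1 and Csf1r fell by 0.70 and 0.65. Complement gave 0 of 29 higher and 17 lower (median −0.50). C7, a component of the membrane attack complex, had 9.70, 9.79, 10.11, 9.62 and 9.70 against 10.86 to 11.40 (median 10.99), a fall of 1.25 (SE 0.11, limma adjusted p = 5.6e-08). C4b, the inhibitor Serping1, C1qb and Cfb fell by 1.02, 0.80, 0.72 and 0.50. Some complement genes are made by macrophages and others by fibroblasts and adipocytes, and the part of each in these decreases was not tested.

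Genes of the interleukin-1 system and the acute phase gave 2 of 34 higher and 16 lower (median −0.30). Il33, an alarmin of stromal cells, had 4.95, 4.91, 4.81, 5.14 and 4.98 against 5.85 to 6.28 (median 6.05), a fall of 1.11 (SE 0.09, limma adjusted p = 3.23e-08). The decoy receptor Il1r2 fell by 1.06, Il1rl2 by 0.96 and Serpina3n by 0.65. Chemokines and their receptors gave 2 of 57 higher and 13 lower, with Ccl24, Ccr2, Pf4 and Ccl9 down by 0.85, 0.70, 0.60 and 0.56. Interferon-stimulated genes gave 1 of 56 higher and 18 lower (median −0.23): Ifi205 and Gbp7 fell by 1.01 and 0.48, and Ifi27 rose by 0.62. The interferon list averaged 5.98 in cold mouse 1, within the 5.86 to 6.15 of warm mice, and 5.65 to 5.70 in the other cold mice; 20 fell without cold mouse 1. Antigen presentation gave 2 of 40 higher and 10 lower. H2-Ab1, a class II chain, had 10.80, 10.40, 10.39, 10.44 and 10.40 against 11.13 to 11.65 (median 11.34), a fall of 0.87, while H2-Q10 rose by 0.49; H2 and Ifi20x genes have close relatives, so their single values are uncertain.

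The MHC list's mean was highest in warm mouse 3 (6.22), the mouse with the highest B and T cell markers (7.41); 8 of its genes fell without that mouse. Mast cell markers gave 0 of 10 higher and 4 lower. Their mean was 5.18 and 5.08 in warm mice 3 and 4, against 4.59 to 4.74 in the other warm mice and 4.31 to 4.58 in cold mice; without either one of these warm mice 4 markers fell. Mcpt4, a mast cell chymase, had 5.31, 5.72, 5.33, 5.01 and 5.37 against 6.12 to 6.83 (median 6.36), a fall of 1.07 (SE 0.15, limma adjusted p = 1.81e-05), and Cpa3, Cma1 and Tpsb2 fell by 0.83, 0.72 and 0.68. Neutrophil and eosinophil markers gave 0 of 11 higher and 1 lower, Csf3r, which lost its call in 12 of 21 settings. Epithelial markers gave 1 of 14 lower, Krtdap (1.19).

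**Figure D4:**
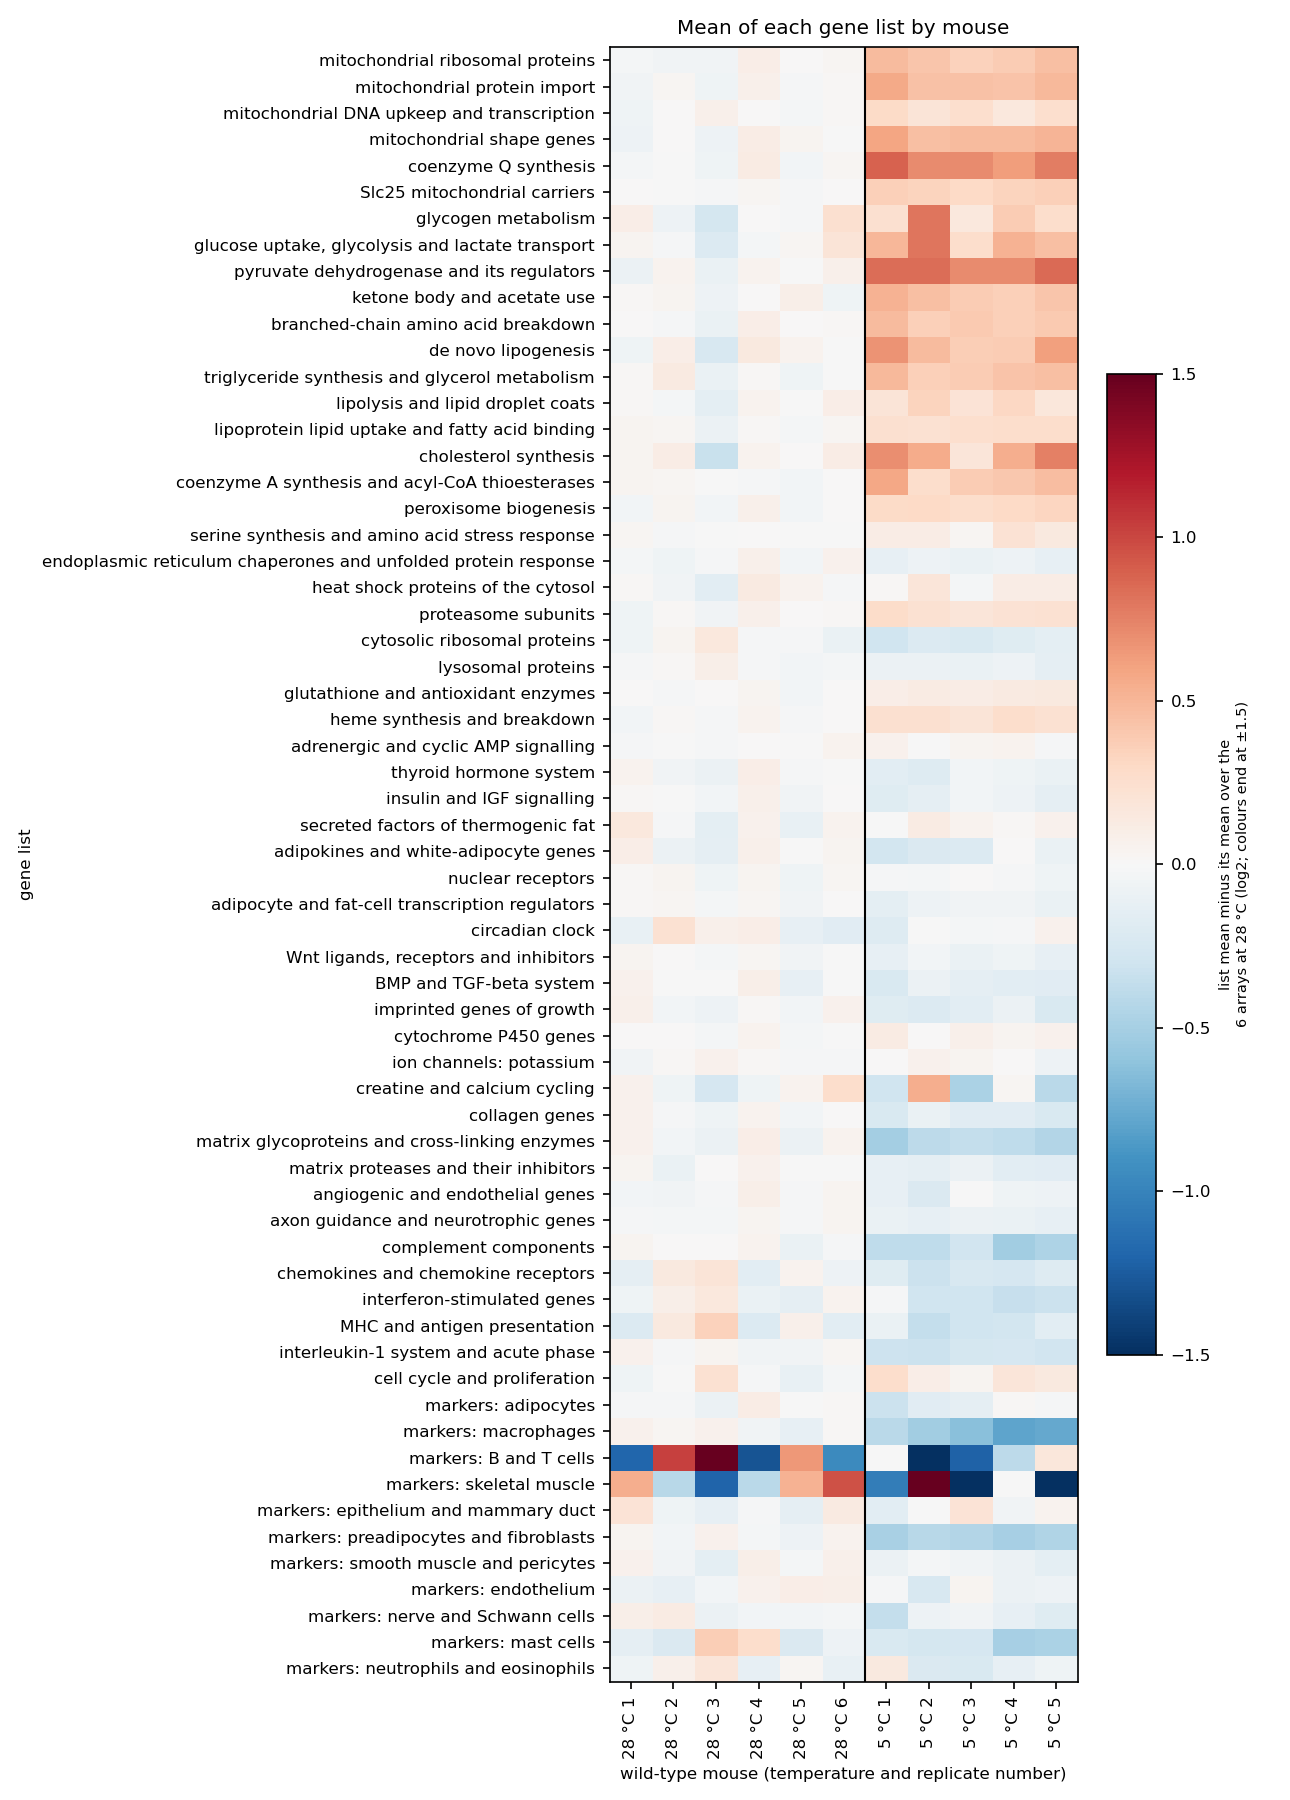
Mean log2 expression of each gene list in each wild-type mouse, minus the list's mean over the 6 mice at 28 °C; colours end at ±1.5. Mitochondrial and fuel lists are higher and matrix, complement and macrophage lists lower in all 5 cold mice, whereas the muscle and lymphocyte markers vary within both temperatures.

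Further genes among the largest named increases belonged to no list and had groups that did not overlap. Hephl1, a copper-containing ferroxidase, rose by 2.15, Paqr9 of the progestin and adiponectin receptor family by 1.93, and Atp4b, known as a subunit of the gastric proton pump, 2.82-fold. Ttc25, Mcrip2 and Lrtm1 rose by 2.17, 1.80 and 1.58. Tuba8, an alpha-tubulin, rose by 1.46, while its second probe set changed by −0.12. Among the largest decreases were Penk, the precursor of enkephalins (1.04), Cited2, a transcription coregulator (1.06), and Chrdl1, a BMP antagonist (1.10). Ankrd29 and Eepd1 fell by 1.32 and 1.26. Ifi208 fell by 1.00 with groups that overlapped, and lost its call in 6 of 20 settings.

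The same contrast in PPARα-null mice gave 1525 genes (6.88%) higher and 1405 (6.33%) lower. All 30 of the largest named increases of wild-type mice and 26 of the 30 largest named decreases were called in the same direction there, and all 60 had the same sign. The change was larger in wild-type mice for 26 of the increases and 27 of the decreases, though genes chosen for large wild-type changes tend to this. For 0 genes (0%) did the cold effect differ between genotypes at an adjusted p under 0.05 in limma, where 1137 genes had an unadjusted p under 0.05 and the smallest adjusted p was 0.69. Gys2 changed by 2.57 in null mice, and the difference, null minus wild type, was −0.03 (95% interval −0.66 to 0.61). Lgr6 rose by 0.72 there against 1.57 (difference −0.85, 95% interval −1.42 to −0.28, limma adjusted p = 0.963).

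The 4 mast cell markers called lower in wild-type mice were not called in null mice, where 0 of 10 were and the list mean was 4.45 to 4.69 at 28 °C, below warm wild-type mice 3 and 4. Mcpt4 changed by −0.26, a difference of 0.80 (95% interval 0.37 to 1.23) that did not pass (limma adjusted p = 0.845). Muscle markers had a median change of −0.63 in wild-type and 0.51 in null mice, with 0 called in each. The matrix glycoprotein list gave 37 lower in null mice and 36 in wild-type mice, the mitochondrial ribosome 47 and 55 higher, and macrophage markers 15 and 16 lower.

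**Figure D5:**
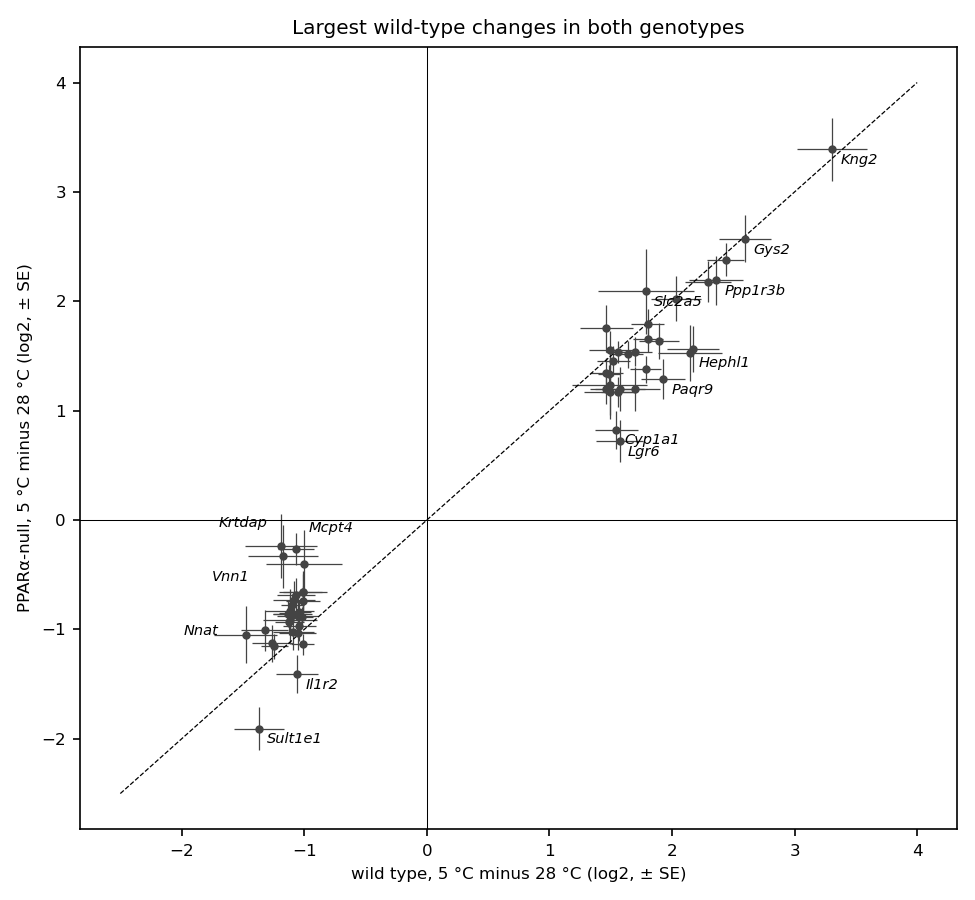
Change in the cold (5 °C minus 28 °C, log2, ± SE) in PPARα-null mice against wild-type mice for the 30 largest named increases and 30 largest named decreases of wild-type mice, with a dashed line of equal change. All 60 points have the same sign on both axes, and Krtdap, Mcpt4 and Vnn1 lie nearest 0 in null mice.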

How the data were processed

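Inguinal fat RNA (100 ng, integrity number above 8) was measured on Affymetrix whole-transcript arrays, 1 mouse each. The authors deposited RMA values on the log2 scale, 1 per probe set and array, per the submitters' processing notes. No RMA version or build for the probe annotation is named there. They were used as deposited. The arrays' distributions were not identical in the deposited values. Arrays have no read depth, and their number limits the precision.

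A single gene symbol was listed for 23521 probe sets, several for 1814 and none for 16010, and only the first kind was used. The probe set brightest over all arrays stood for each of 1082 genes with several. limma 3.58.1 (R 4.3.3) fitted the 4 groups together (18 residual degrees of freedom), with empirical Bayes and Benjamini-Hochberg adjustment over all genes; calls are at an adjusted p under 0.05, and SEs and 95% intervals come from this fit. The fit was checked on simulated data with independent normal noise and known changes in the wild-type comparison. It recovered 52% of changes of 0.5 log2 units, 94% of changes of 1 and 100% of changes of 2, with 9 false calls among 22180 genes. Far fewer genes were changed there than were called in the data. The adjustment depends on that number, so these shares need not hold for the data. The difference between genotypes was not covered. Other packages were data.table (1.17.8), Python 3.11.15, pandas 2.3.3 and matplotlib 3.10.9.

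The comparison and the 66 gene lists (3 set aside, 51 of functions, 12 of cell types, 2194 measured genes) were chosen with earlier results of these data known, so lists are described by counts and medians beside the share over all genes, with no test. Lists can share genes, so their counts are not separate results. All 10 endothelial and all 7 adipocyte markers, for example, are also in another list. Red blood cell markers had 1 measured gene, which was not called. Named were Ucp1, Ppara and Nnt, the 30 largest called increases and decreases outside the set-aside lists (predicted genes passed over), and per list up to 4 called genes with the smallest p and up to 3 against its direction. The promoter genes Ndufa11 and Mrpl9 were chosen for their motif. Alternatives were 2 rescalings, 2 filters, the mean of probe sets, another variance model, array weights, wild-type arrays alone, the replicate number as a block, muscle and lymphocyte covariates, and leaving out each wild-type array.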

Additional observations from a re-analysis of the deposited data

Results flagged for a closer look

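In 21 of 602 groups of values of the named genes (3.49%), 1 mouse lay far from the others of its group by Dixon's test at 95%, which chance alone gives in about 1 in 20 groups. The named genes were mostly chosen by small p or large change, and all groups come from the same 11 mice. The share is therefore not a fair comparison with chance. At 5 °C, mouse 1 was the highest for Slc16a1 (10.1, next 9.76), Adam12 (8.11, next 7.78), Coq9 (8.40, next 8.13), Unc5a (7.29, next 6.80) and H2-Ab1 (10.8, next 10.4). Mouse 3 was the highest for Cyp1a1 (5.70, next 4.98) and the lowest for Me1 (11.5, next 11.9) and Rps27l (5.81, next 6.05). Mouse 2 was the lowest for Gsto1 (8.44, next 8.57), and mouse 5 for Gnpat (9.21, next 9.29).

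At 28 °C, mouse 1 was the highest for C7 (11.4, next 11.04), Col1a2 (10.6, next 10.4) and Col1a1 (10.8, next 10.5). Mouse 3 was the lowest for Ccdc80 (10.6, next 10.8) and Pmvk (6.97, next 7.47) and the highest for Rps4x (10.1, next 9.98). Mouse 5 was the lowest for Adam12 (5.79, next 6.34) and the highest for Pdpr (7.67, next 7.56). Mouse 6 was the highest for Tek (8.85, next 8.67) and Ccr2 (7.06, next 6.62) and the lowest for Ccl28 (2.95, next 3.58).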

How the results depend on the processing

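Over 21 alternatives, 270 of the 301 named genes kept their direction and call wherever they were tested, 31 lost the call in at least 1, and 0 changed direction. The count of higher genes ran from 1755 to 2368 and that of lower genes from 1354 to 2208 over settings with all mice and both genotypes, and was 1678 and 1576 with wild-type arrays only. Leaving out 1 mouse gave 1623 to 1815 higher and 1522 to 1773 lower, with 164 to 195 and 28 to 42 past 2-fold. Genes more than 2-fold lower numbered 22 with array medians subtracted, against 34; fewer genes fell because the cold arrays' medians were lower. With the replicate number as a block 1831 rose and 1681 fell. Same-numbered mice did not deviate together (correlations −0.15 to 0.05, with 0 of 5 numbers correlating best with their own). Nothing in the labels says that the numbers pair mice, and so few correlations cannot exclude it. The cold effect differed between genotypes for 0 genes in the settings run, except 1 gene without cold mouse 3 (2310069B03Rik, −1.43 null minus wild type, limma adjusted p = 0.0214, against −1.24 and 0.688 with all mice; the cause was not tested). Leaving out 1 mouse gave 0 to 1 such genes. Array signal limits the dimmest genes, where few were called.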
